A study of Mus musculus with 6 samples.

Results

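The Bcl2 family of cell death regulators was followed through 10 of its genes in mouse embryonic stem cells. The cells were given siRNA against a THO complex subunit or a non-targeting siRNA. The members were chosen by name, as every probe whose gene name in the scanner files was Bcl2, Bcl2l1, Mcl1, Bax, Bak1, Bid, Bcl2l11, Pmaip1, Bbc3 or Bad. This gave 19 of 41174 probes, printed on 46 spots, for 10 of 19370 genes. Of the 19 probes 18 passed the filter on dim probes, and each of the 10 genes kept at least 1 probe. The cells were J1, a mouse embryonic stem cell line, transfected in M10 medium with a non-targeting siRNA (NT), Thoc2 siRNA or Thoc5 siRNA. Total RNA was harvested after 96 hours and hybridised to single-colour Agilent arrays, 2 arrays for each of the 3 groups. Nothing in the labels tells whether the 2 replicates of a group came from separate cultures, and p-values here measure only the spread between arrays, which may be technical. Thoc2 and Thoc5 are subunits of THO, which binds nascent mRNA and takes part in its export from the nucleus. The arrays measure mRNA in total RNA, and neither its export nor the protein.

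Proteins of the Bcl2 family decide whether the outer membrane of the mitochondrion is opened, the step that releases cytochrome c and starts caspase activation. Bax and Bak1 form the pores. Bcl2, Bcl2l1 (Bcl-xL) and Mcl1 bind and restrain them. The BH3-only proteins Bid, Bcl2l11 (Bim), Pmaip1 (Noxa), Bbc3 (Puma) and Bad sense stress and either engage the pore formers or occupy the restraining proteins. Mcl1 is needed in the early mouse embryo, and mouse embryonic stem cells are known to die readily after DNA damage.

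Levels are log2 processed signals scaled to the 75th percentile of each array, which is set to 0. The levels of different probes are not comparable, because each probe binds its target with its own strength. Members with several probes are therefore described probe by probe. Coordinates are those of the files, in mouse build mm7. All probes are 60 bases long, and the 5 whose sequences show which part of a member the results below refer to are printed here 5′ to 3′, with no bases marked.

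Bcl2l11 A_51_P484880: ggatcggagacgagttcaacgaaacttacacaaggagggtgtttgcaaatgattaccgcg
Bax A_51_P254541: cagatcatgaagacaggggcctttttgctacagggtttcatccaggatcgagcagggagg
Bcl2l1 A_52_P510877: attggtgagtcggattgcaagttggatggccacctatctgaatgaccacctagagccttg
Bcl2 A_51_P380013: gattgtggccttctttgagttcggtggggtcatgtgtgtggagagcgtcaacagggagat
Bak1 A_52_P225207: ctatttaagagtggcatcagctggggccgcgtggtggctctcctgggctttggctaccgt

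The Bcl2l11 probe lies at chr2:127888010-127899105 on the plus strand. Its 60 bases are spread over 11096 bases of genome, so it matches RNA across an exon junction. The Bax probe, at chr7:41641827-41641982 on the minus strand, covers 156 bases of genome and also crosses a junction. The Bcl2l1 probe lies at chr2:152570306-152570365, the Bcl2 probe at chr1:106612249-106612308 and the Bak1 probe at chr17:25205887-25205946, each on the minus strand and without a gap.

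Thoc2 siRNA arrays held Thoc2 mRNA at 55.0% of NT and Thoc5 siRNA arrays held Thoc5 mRNA at 41.4%, with adjusted p of 0.304 and 0.130 in the limma fit over all genes. The signal at the 75th percentile was 306 on replicate 1 of Thoc5 siRNA, the dimmest array, and 716 to 905 on the others. Replicate 1 of Thoc2 siRNA had 880 outlier spots against 63 to 155. Each of the 9 measured stem cell markers was well above background on all 6 arrays, and their summed signal, in multiples of the 75th percentile, was 1006 and 1061 with NT, 828 and 860 with Thoc2 and 1007 and 801 with Thoc5 siRNA, most of it from Dppa5a. All 9 lay below NT with each siRNA, and 8 or 9 did in every setting tried. Their medians were -0.30 and -0.36, against 0.063 and -0.085 for all genes. Of all genes 55.8% lay above NT with Thoc2 siRNA and 43.2% with Thoc5 siRNA. None of the 9 markers passed the adjusted threshold. With Thoc5 siRNA Pou5f1 was at 54.5%, Nanog at 70.8% and Sox2 at 69.9% of NT (adjusted p = 0.153, 0.205 and 0.246 in the limma fit). Of 14 feeder fibroblast markers 11 passed the filter, with a summed signal of 11.6 to 15.2 on the 6 arrays, most of it from Acta2, and Fap was not well above background on any. They lay on both sides of NT, 6 of 11 below with Thoc2 and 7 of 11 with Thoc5 siRNA. Thy1 was at 33.9% and 24.9% of NT (adjusted p = 0.246 and 0.122), and with Thoc5 siRNA it passed the adjusted threshold where variances followed intensity and resisted outliers. Fbn1 was above NT (0.90 and 0.78), and Col1a1 was at -1.37 with Thoc5 siRNA and above 0 in 1 of 18 settings. The brightest kept Col3a1 probe, which passed the filter only through the Thoc2 arrays, was not well above background on either NT array. It was well above background on both Thoc2 arrays and on 1 Thoc5 array. Another Col3a1 probe, well above background on 2 of 6 arrays, read -4.07 and -8.18 with NT and -6.02 and -3.56 with Thoc2 siRNA. Fewer cells of a type and less RNA per cell cannot be told apart in such bulk RNA, and the part of either marker list in the results was not tested.

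None of the 10 members passed the threshold of 0.05 after Benjamini-Hochberg adjustment in any of the 3 comparisons, nor did any other gene (0% of genes in each). At an unadjusted p under 0.05, limma found 14.5% of all genes for Thoc2 siRNA against NT, 19.4% for Thoc5 siRNA against NT and 9.17% for Thoc5 against Thoc2 siRNA. Among the members 1 of 10 (Mcl1), 1 of 10 (Bax) and 0 of 10 did so, shares no larger than those of all genes. Where limma was run with variances that follow intensity and resist outliers (trend and robust), 4 genes passed the adjusted threshold for Thoc2 siRNA and 660 for Thoc5 siRNA. With a stricter filter, of probes well above background on all arrays, 509 did for Thoc5 siRNA. No member was among them when each gene was read by its brightest probe. Differences below are given with the SE from limma (2 arrays per group), and the plot of member levels shows every array.

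**Figure D1:**
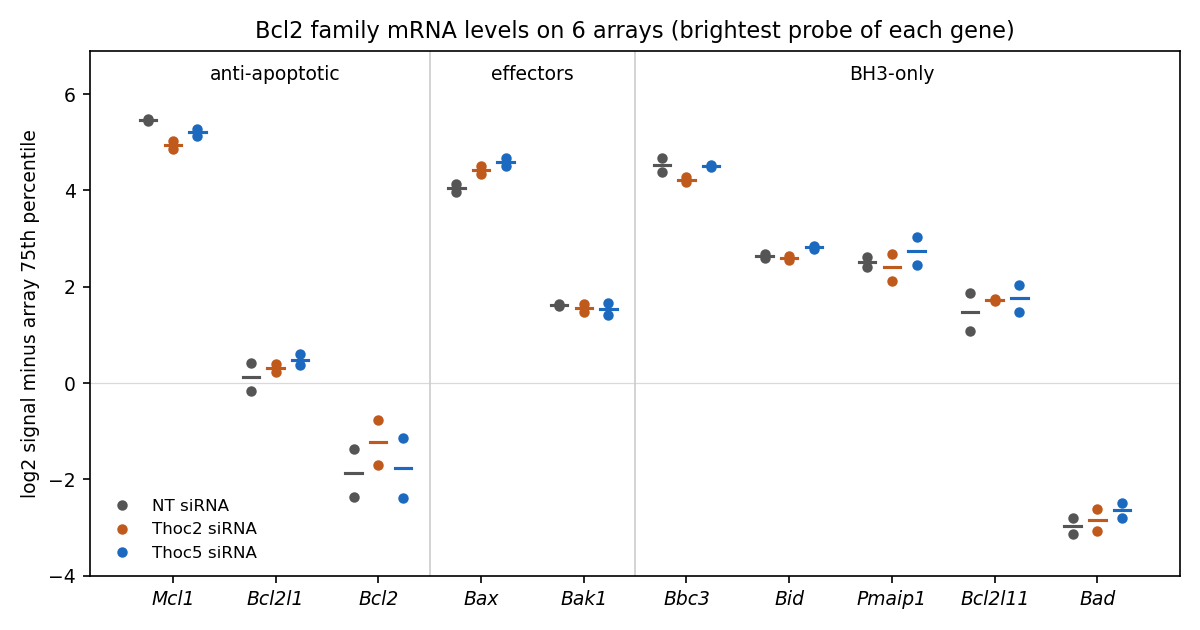
Level of each of the 10 members on the 6 arrays (y axis: log2 signal minus the array's 75th percentile; points are arrays, lines are group means; each gene by its brightest probe, so that heights of different genes are not comparable). The Mcl1 points with NT siRNA lie at 5.48 and 5.45, above all 4 points of the other groups, and the Bax points with NT siRNA lie at 4.12 and 3.97, below all 4.

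Mcl1, a short-lived survival protein, was the member lowest against NT at the brightest probe of each gene with Thoc2 siRNA. Its brighter probe, A_51_P238786 at chr3:95536882-95536941, read 5.48 and 5.45 with NT, 4.87 and 5.02 with Thoc2 and 5.28 and 5.13 with Thoc5 siRNA. The 3 groups did not overlap, and the NT arrays were the highest. With Thoc2 siRNA the mRNA was at 69.9% of NT (-0.52 ± 0.15, adjusted p = 0.273), and with Thoc5 siRNA at 83.7% (-0.26 ± 0.15, adjusted p = 0.424). The second Mcl1 probe, A_52_P93933, lies 1312 bases upstream. It read 4.28 and 4.49 with NT, 4.25 and 3.98 with Thoc2 and 4.26 and 4.17 with Thoc5 siRNA. Here too the NT arrays were the highest, but by smaller steps (-0.27 ± 0.18 and -0.17 ± 0.18). The sign of the Mcl1 difference was the same under every scaling, filter and left-out array tried, with values of -0.94 to -0.39 for Thoc2 siRNA.

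Bcl2l1, whose main product Bcl-xL restrains Bax and Bak1, was read by 3 probes, and all 3 were above NT on average with both siRNAs, though the brightest was not in every setting. The probe whose sequence is printed above, A_52_P510877, read -2.93 and -2.93 with NT, -2.29 and -2.67 with Thoc2 and -2.05 and -2.32 with Thoc5 siRNA. All 4 arrays of the THO groups lay above both NT arrays, which serve both comparisons. By gene, 26.1% of all genes lay wholly above NT with Thoc2 siRNA and 21.7% with Thoc5 siRNA. The difference was 0.44 ± 0.21 with Thoc2 siRNA and 0.74 ± 0.21 with Thoc5 siRNA (adjusted p = 0.173 in the limma fit over all probes). The brightest Bcl2l1 probe, A_52_P148861, is printed on 10 spots. It read -0.16 and 0.42 with NT, 0.403 and 0.23 with Thoc2 and 0.38 and 0.597 with Thoc5 siRNA. Both groups overlapped NT, and the NT arrays stood apart from each other by more than the spread of the spots within an array (SD 0.067 to 0.15). The differences were 0.18 ± 0.25 and 0.35 ± 0.25. Without NT replicate 1 they were -0.11 and 0.063, and with median scaling the Thoc2 difference was -0.12. The dimmest probe, A_51_P299454, was flagged as an outlier on replicate 1 of Thoc2 siRNA, so its Thoc2 value rests on 1 array (1.47 ± 0.81). With Thoc5 siRNA it was at 0.74 ± 0.66, on overlapping groups.

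Bcl2, the founding survival protein of the family, gave opposite signs on its pair of measured probes. A_51_P380013, printed above, read -2.36 and -1.38 with NT, -1.69 and -0.77 with Thoc2 and -2.38 and -1.14 with Thoc5 siRNA. The replicates of each group stood further apart than the group means did, and the differences were 0.64 ± 0.62 and 0.11 ± 0.62. A_52_P534870, 174151 bases further downstream in the gene and matched in the files to another Bcl2 transcript, read -5.09 and -4.78 with NT, -5.27 and -5.64 with Thoc2 and -5.94 and -5.14 with Thoc5 siRNA. It was dim, being well above background on 4 of 6 arrays, and the NT arrays were the highest (-0.52 ± 0.34 and -0.61 ± 0.34). With normexp background correction the same probe was at 1.08 and 1.02, the opposite sign. The remaining Bcl2 probe, A_52_P438280, was well above background on 3 arrays, with no group complete, and was not tested.

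**Figure D2:**
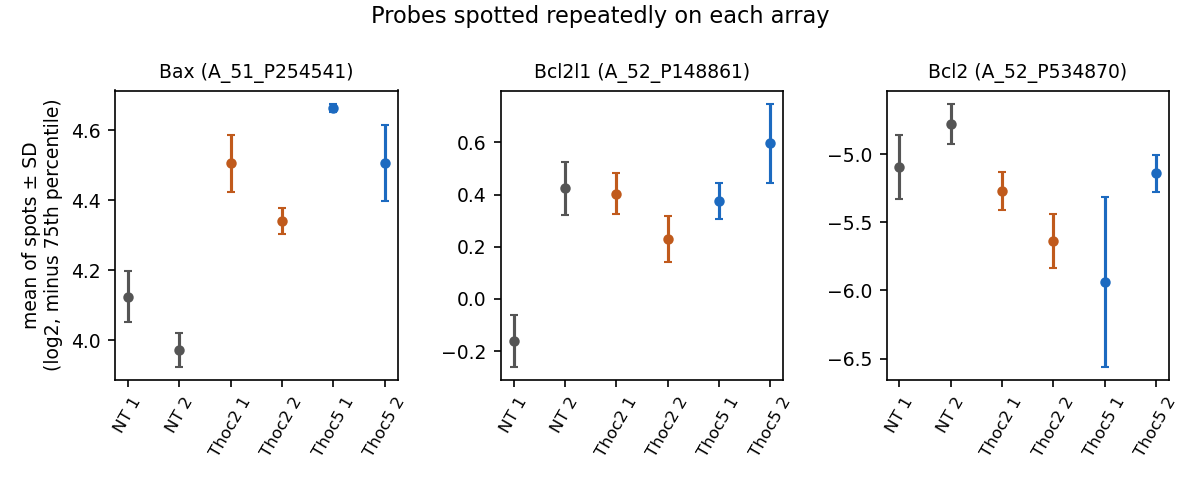
The 3 member probes printed on 10 spots of each array (y axis: mean of the spots that were not outliers, on the log2 scale minus the 75th percentile; bars are the SD between spots of 1 array, 8 to 10 spots). The Bax means with NT siRNA, 4.12 and 3.97, lie below those of the other 4 arrays by more than the bars, the Bcl2l1 means with NT siRNA differ from each other by more than the bars, and the dim Bcl2 probe has its widest bar on replicate 1 of Thoc5 siRNA.

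Bax, 1 of the 2 pore formers, was the member highest against NT at the brightest probe of each gene with Thoc5 siRNA. It read 4.12 and 3.97 with NT, 4.51 and 4.34 with Thoc2 and 4.66 and 4.51 with Thoc5 siRNA. Both NT arrays lay below the other 4, while the higher Thoc2 and the lower Thoc5 array were equal at this precision. Bax mRNA was at 145% of NT with Thoc5 siRNA (0.54 ± 0.16, adjusted p = 0.190) and at 130% with Thoc2 siRNA (0.38 ± 0.16, adjusted p = 0.381). The spots of an array agreed closely (SD 0.012 to 0.11), and the Thoc5 difference was as large within the slide that held an array of each group (0.53). It kept its sign under every alternative, at 0.24 to 0.64, and its lowest adjusted p was 0.0738. The Thoc2 difference fell to 0.072 with median scaling.

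Bak1, the other pore former, gave no such difference at its brighter probe. A_51_P395011, at chr17:25204734-25204793, read 1.59 and 1.65 with NT, 1.48 and 1.63 with Thoc2 and 1.66 and 1.41 with Thoc5 siRNA. The groups overlapped, and the differences were -0.067 ± 0.17 and -0.089 ± 0.17. The 95% intervals of the limma fit ran from -0.51 to 0.37 and from -0.53 to 0.35. The other Bak1 probe, A_52_P225207, read -0.0034 and -2.62 with NT, -1.07 and 0.47 with Thoc2 and -0.95 and -1.24 with Thoc5 siRNA. It was well above background on all 6 arrays, yet the NT arrays differed by more than any groups did, and the differences were within their errors (1.01 ± 1.02 and 0.22 ± 1.02).

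Bcl2l11 encodes Bim, a BH3-only protein made in several splice forms. Its junction probe, A_51_P484880, held the largest difference among the member probes with Thoc5 siRNA. It read -1.304 and -1.02 with NT, 0.36 and 0.11 with Thoc2 and 0.13 and 0.64 with Thoc5 siRNA. All 4 arrays of the THO groups lay more than 1 unit above both NT arrays, which serve both comparisons. The signal was 2.63-fold higher than with NT after Thoc2 siRNA (1.39 ± 0.25, adjusted p = 0.219 over all probes) and 2.92-fold higher after Thoc5 siRNA (1.55 ± 0.25, adjusted p = 0.106). Of all probes 10% lay 1 or more above NT with Thoc2 siRNA and 5.09% with Thoc5 siRNA. Within the slides that held both groups the differences were 1.41 and 1.66. The Thoc5 difference passed the adjusted threshold with the stricter filter (adjusted p = 0.0439) and with trend and robust variances (adjusted p = 0.0303). In the other settings it did not pass, with an adjusted p of up to 0.65.

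The other Bcl2l11 probes did not show a difference of that size. A_52_P158527, the brightest, lies 15158 bases downstream of the start of the junction probe, at chr2:127903168-127903227. It read 1.08 and 1.87 with NT, 1.75 and 1.698 with Thoc2 and 1.49 and 2.03 with Thoc5 siRNA. The groups overlapped, and the differences were 0.25 ± 0.35 and 0.29 ± 0.35. The junction probe minus this probe, taken on each array, was -2.38 and -2.89 with NT, -1.39 and -1.59 with Thoc2 and -1.36 and -1.396 with Thoc5 siRNA. The NT arrays were the lowest of the 6 in that ratio, which was not tested on its own. A_52_P348214, the most upstream probe and named through another transcript, was dim and read -5.27 and -4.96 with NT, -4.34 and -5.06 with Thoc2 and -4.88 and -4.22 with Thoc5 siRNA. The Thoc5 arrays lay above both NT arrays (0.57 ± 0.36), while the Thoc2 arrays overlapped NT (0.42 ± 0.36).

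**Figure D3:**
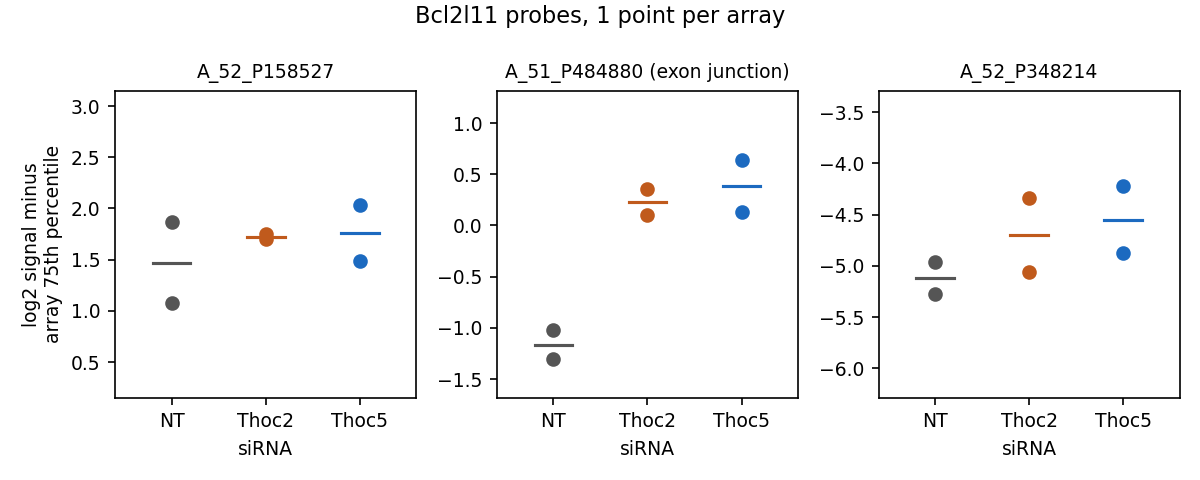
The 3 Bcl2l11 probes by siRNA group (y axis: log2 signal minus the array's 75th percentile, over the same span of 3 units in each panel; points are arrays, lines are group means). The junction probe in the middle lies at -1.304 and -1.02 with NT siRNA and between 0.11 and 0.64 on the other 4 arrays, while the groups overlap at the left probe.

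Bbc3 (Puma), a p53 target that binds all restraining members, was lower with Thoc2 siRNA than with NT on every array. It read 4.68 and 4.39 with NT, 4.17 and 4.27 with Thoc2 and 4.53 and 4.49 with Thoc5 siRNA. The Thoc2 difference was -0.31 ± 0.17 (adjusted p = 0.454) and kept its sign in every setting, while the Thoc5 arrays lay between the NT arrays (-0.024 ± 0.17). Pmaip1 (Noxa), another p53 target that mainly binds Mcl1, read 2.63 and 2.41 with NT, 2.69 and 2.13 with Thoc2 and 2.45 and 3.03 with Thoc5 siRNA. Its groups overlapped in both comparisons (-0.11 ± 0.31 and 0.22 ± 0.31).

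Bid, which is cleaved after death receptor signalling and carries the signal to the mitochondrion, had the smallest SE of the 10 members. It read 2.61 and 2.67 with NT, 2.56 and 2.63 with Thoc2 and 2.85 and 2.79 with Thoc5 siRNA. The Thoc5 arrays were the highest, by 0.18 ± 0.14 (adjusted p = 0.537), and the Thoc2 arrays overlapped NT (-0.044 ± 0.14, 95% interval -0.405 to 0.32). With normexp background correction the Thoc5 difference was -0.074, the opposite sign. Bad, a BH3-only protein controlled by growth factor signalling, was read by 2 dim probes that lie on opposite strands in the files. The plus-strand probe, A_51_P419364 at chr19:6761992-6762051, read -4.55 and -4.43 with NT, -3.59 and -4.18 with Thoc2 and -4.23 and -4.005 with Thoc5 siRNA. All 4 arrays of the THO groups were above NT (0.61 ± 0.25 and 0.37 ± 0.25, adjusted p = 0.360 and 0.485 over all probes). By gene, 26.1% of all genes with Thoc2 siRNA and 21.7% with Thoc5 siRNA lay wholly above the same NT arrays. RefSeq places Bad on the plus strand. The minus-strand probe, A_52_P614762, was the brighter and so stood for the gene, at 0.12 ± 0.25 and 0.33 ± 0.25, but whether it reads Bad mRNA is uncertain.

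Members of both kinds lay on both sides of NT. Of all genes 55.8% lay above NT with Thoc2 siRNA and 43.2% with Thoc5 siRNA. For Thoc2 siRNA 2 of 3 anti-apoptotic, 1 of 2 pore-forming and 2 of 5 BH3-only genes lay above NT, with medians of 0.18, 0.15 and -0.044 against 0.063 for all genes. For Thoc5 siRNA the counts were 2 of 3, 1 of 2 and 4 of 5, with medians of 0.11, 0.22 and 0.22 against -0.085 for all genes. These counts and medians moved with the processing. For Thoc5 siRNA the BH3-only median was 0.013 without Thoc5 replicate 2 and -0.074 with normexp background correction (3 of 5 below NT), and the anti-apoptotic median was -0.24 without NT replicate 1. For Thoc2 siRNA all 5 BH3-only genes lay below NT with median scaling (median -0.35, all genes -0.24), and the anti-apoptotic median was then -0.12. The groups did not overlap for 3 of 10 genes with Thoc2 siRNA (Mcl1 and Bbc3 lower, Bax higher), beside 47% of all genes (26.1% higher and 20.9% lower). With Thoc5 siRNA they did not overlap for 4 of 10 (Mcl1 lower, Bax, Bid and Bad higher), beside 52.8% of all genes (21.7% higher and 31.1% lower). Bad enters these gene counts and medians by its minus-strand probe, which may not read Bad mRNA. Its plus-strand probe lay wholly above NT with both siRNAs (0.61 and 0.37). By probe, 11 of 18 lay above NT with Thoc2 siRNA (57.5% of all probes) and 13 of 18 with Thoc5 siRNA (45.8% of all probes). An unadjusted p under 0.05 was reached by 2 of 18 probes with Thoc2 siRNA (15% of all probes) and by 3 of 18 with Thoc5 siRNA (19.7% of all probes). Both shares are below those of all probes, and no member probe, nor any other probe (0%), passed the adjusted threshold.

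**Figure D4:**
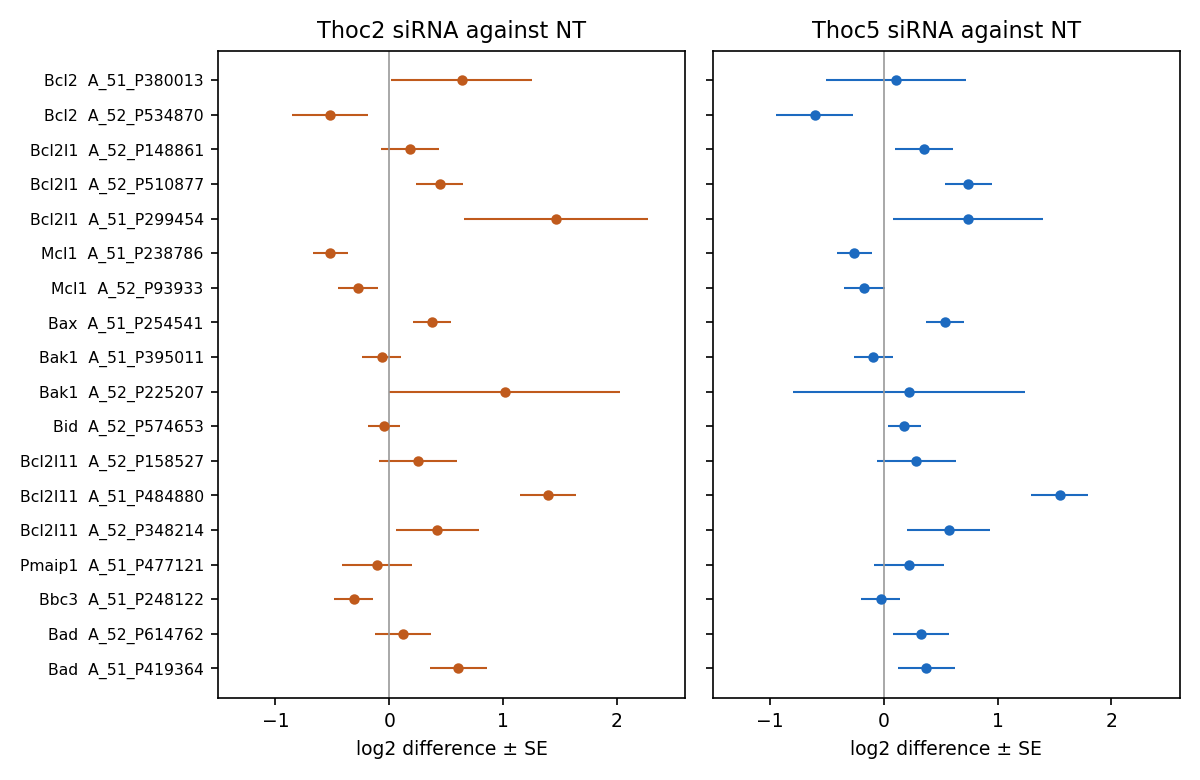
Log2 difference from NT of the 18 measured member probes with Thoc2 siRNA (left) and Thoc5 siRNA (right); bars are the SE from limma (2 arrays per group). The Bcl2l11 probe A_51_P484880 stands at 1.39 and 1.55, both Mcl1 probes lie below 0 in both panels, and the widest bars belong to the Bak1 probe A_52_P225207 (SE 1.02).

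For 5 members (Bcl2, Bcl2l1, Mcl1, Bak1 and Bcl2l11) the most upstream probe was set against the most downstream one, a comparison chosen after the values were seen. It took kept probes that RefSeq names by accession, all on 1 strand and with more than 100 and fewer than 500000 bases between the outer ones, which left out A_52_P348214. The upstream probe gave the higher difference from NT in 5 of 5 genes with each siRNA. The count rests on single arrays: without NT replicate 2 it was 4 of 5 with Thoc2 siRNA (Bak1 turned) and 3 of 5 with Thoc5 siRNA (Bak1 and Bcl2l1 turned), without NT replicate 1 or Thoc5 replicate 2 it was 4 of 5 with Thoc5 siRNA, and with normexp 4 of 5 with each (Bcl2 turned). Over all 3941 genes with such probes this held for 66.2% with Thoc2 siRNA and for 65.5% with Thoc5 siRNA. Most genes had the order seen in the members. The steps in the members were 1.16 and 0.71 for Bcl2, 1.28 (on 1 Thoc2 array) and 0.38 for Bcl2l1, 1.08 and 0.31 for Bak1, 0.24 and 0.088 for Mcl1 and 1.14 and 1.26 for Bcl2l11. Both comparisons use the same NT arrays. Between Thoc5 and Thoc2 siRNA the upstream probe was the higher in 1 of the 5 members and in 52.2% of all such genes. Where the upstream probe was the dimmer of a pair the share was 69.4% with Thoc2 and 69.1% with Thoc5 siRNA, and where it was the brighter 58.6% and 56.7%. The part of signal strength or of probe position in this was not tested.

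Thoc5 and Thoc2 siRNA were then set directly against each other, which leaves the NT arrays out of the difference. No member reached an unadjusted p under 0.05. The 2 groups did not overlap for 4 of 10 genes, all higher with Thoc5 siRNA, beside 45.8% of all genes and 13.2% in that direction. These were Mcl1 (0.26 ± 0.15), Bax (0.16 ± 0.16), Bid (0.23 ± 0.14) and Bbc3 (0.29 ± 0.17), with adjusted p between 0.640 and 0.752. The median of all genes was -0.13 in this comparison and 0.26 with median scaling, so sizes here depend on the scaling. All 4 differences stayed above 0 in every setting and without any 1 array, at 0.0798 to 0.68. For Bax the groups were apart by less than the precision printed here. The Bcl2l11 junction probe differed little between them (0.15 ± 0.25).

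Bax, Bbc3 and Pmaip1 are known targets of p53, so p53 and its best-known target were read beside them. Trp53, which encodes p53, was at 0.15 ± 0.15 with Thoc2 siRNA and 0.17 ± 0.15 with Thoc5 siRNA. Mdm2, the p53 target that in turn degrades p53, read 2.397 and 2.54 with NT, 2.81 and 2.67 with Thoc2 and 3.51 and 3.79 with Thoc5 siRNA. The Thoc5 arrays were the highest (1.19 ± 0.17, adjusted p = 0.101), and Mdm2 passed the adjusted threshold with the 2 settings that also passed the Bcl2l11 junction probe (lowest adjusted p 0.0229). Of the 3 targets in the family only Bax was higher than NT on all Thoc5 arrays, while Bbc3 and Pmaip1 overlapped NT. The activity of p53 was not measured, and its part in these differences was not tested. The upstream sequence of Bax is printed because its 250 bases before the annotated start, chr7:45466899-45467148 on the minus strand of GRCm38.p6 in RefSeq, hold a match to the p53 half-site, in capitals.

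Bax promoter: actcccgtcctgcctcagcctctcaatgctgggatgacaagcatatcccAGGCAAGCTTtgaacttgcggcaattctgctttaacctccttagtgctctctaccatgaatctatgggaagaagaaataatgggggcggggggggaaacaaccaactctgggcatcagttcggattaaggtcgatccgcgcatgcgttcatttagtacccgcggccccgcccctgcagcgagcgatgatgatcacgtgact

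The match begins at position -201 relative to the start. Among 15 windows of 300 bases for 9 members (250 before and 50 after a start; some windows of 1 gene overlap, and Pmaip1 was not matched), this was the only one with a half-site, against 8.36% of 32851 mouse promoters. The Mdm2 window held one as well, at -186. Of the other motifs searched on both strands, the GC box (GGGCGG) was in 10 of the 15 windows and in 35.7% of all promoters, the CCAAT box (CCAAT) in 4 and in 37.4%, and the E-box (CACGTG) in 2, of Bbc3 and Bax, and in 7.15%. The CRE (TGACGTCA) and AP-1 (TGANTCA) letters were in none of the 15, against 1.79% and 7.81%. A match describes these letters only; no binding was measured.

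Beyond the 10 members, 15 of 20 further relatives and partners of the family were measured. With Thoc2 siRNA 12 of the 15 lay below NT (median -0.36, all genes 0.063), and with Thoc5 siRNA 11 did (median -0.498, all genes -0.085); with normexp background correction 8 did in each. None passed the adjusted threshold, and an unadjusted p under 0.05 was reached by 2 of 15, both lower, beside 14.5% of all genes, and by 7 of 15, of which 6 were lower, beside 19.4%. Bnip3, a mitochondrial protein of hypoxia and mitophagy, read 3.96 and 3.57 with NT, 2.14 and 2.10 with Thoc2 and 2.31 and 2.08 with Thoc5 siRNA. The groups were far apart (-1.64 ± 0.20, adjusted p = 0.207, and -1.57 ± 0.20, adjusted p = 0.101). Bmf, a BH3-only protein released when cells detach, read 1.13 and 1.09 with NT, 0.298 and 0.11 with Thoc2 and -0.28 and -0.13 with Thoc5 siRNA. It was below NT on all 4 arrays (-0.904 ± 0.15, adjusted p = 0.218, and -1.32 ± 0.15, adjusted p = 0.101), and with the mean of its kept probes the differences were -0.25 and -0.96. Of all genes 20.9% lay wholly below NT with Thoc2 siRNA and 31.1% with Thoc5 siRNA. Bnip3 and Bmf passed the adjusted threshold for Thoc5 siRNA in the same 2 settings as Mdm2. Bnip2, a binding partner of Bcl2, was above NT (0.49 ± 0.21 and 0.96 ± 0.21). Between the siRNAs, Bcl2l14 (-0.805 ± 0.24), Bmf (-0.41 ± 0.15) and Bcl2l2, the survival protein Bcl-w (0.38 ± 0.15), had the smallest p of this list, with adjusted p of 0.503 to 0.553.

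Downstream of the mitochondrion, 16 of 17 genes of the apoptosome and the caspases were measured and none passed the adjusted threshold. An unadjusted p under 0.05 was reached by 2 of 16 with Thoc2 siRNA (1 higher), beside 14.5% of all genes, and by 6 of 16 with Thoc5 siRNA (2 higher), beside 19.4%. Casp9, the caspase of the apoptosome, was at -0.65 ± 0.18 and -0.62 ± 0.18. Casp8, the caspase of death receptors, was at 0.63 ± 0.22 with Thoc2 siRNA, and Parp1, a DNA repair enzyme cut by caspases, at -0.501 ± 0.15 with Thoc5 siRNA. Between the siRNAs the smallest p belonged to Casp1 (-2.21 ± 0.74, well above background on 1 of 2 Thoc5 arrays), Dffb, the apoptotic nuclease (0.38 ± 0.15), and Parp1 (-0.31 ± 0.15).

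Of 14 inhibitor of apoptosis proteins and their antagonists 11 were measured, and none passed. Xiap, which blocks caspases, read -2.37 and -2.14 with NT, -1.06 and -1.23 with Thoc2 and -1.24 and -0.99 with Thoc5 siRNA. All 4 arrays of the THO groups were above NT (1.11 ± 0.18, adjusted p = 0.218, and 1.13 ± 0.18, adjusted p = 0.107). Of all genes 26.1% lay wholly above NT with Thoc2 siRNA and 21.7% with Thoc5 siRNA, and both comparisons use the same NT arrays. The Thoc5 difference of Xiap passed in the same 2 settings as Mdm2, in which 509 and 660 genes passed. Birc3 was at -0.32 ± 0.15 and -0.75 ± 0.15. Birc6 was at -0.37 ± 0.17 with Thoc2 siRNA, and Diablo, the released antagonist of these inhibitors, at 0.49 ± 0.16 with Thoc5 siRNA. Between the siRNAs the smallest p belonged to Birc3 (-0.43 ± 0.15), Septin4 (-0.93 ± 0.53) and Naip6 (-1.56 ± 1.23), the last 2 well above background on 1 of 2 Thoc5 arrays.

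Of 14 death receptor genes 13 were measured, and none passed. Tnfrsf1a, the TNF receptor with a death domain, was at -1.27 ± 0.39 and -1.52 ± 0.39 (-0.497 and -0.82 with normexp), Daxx at 0.39 ± 0.14 and 0.44 ± 0.14, the adaptor Tradd at -0.39 ± 0.15 with Thoc2 siRNA and Traf2 at 0.52 ± 0.16 with Thoc5 siRNA. Daxx was at -0.0061 in 1 setting with Thoc2 siRNA. Between the siRNAs Tnfrsf10b (0.37 ± 0.23), Tnf (-1.67 ± 1.36, well above background on 1 of 2 Thoc5 arrays) and Mlkl (0.76 ± 0.65) had the smallest p, all above 0.05. All 13 mitochondrial channel and fission genes were measured, and none passed. With Thoc2 siRNA 10 lay below NT (median -0.23, all genes 0.063), and with Thoc5 siRNA 11 did (median -0.21, all genes -0.085). Of all genes 55.8% lay above NT with Thoc2 siRNA and 43.2% with Thoc5 siRNA. Tspo, of the outer membrane, was at -0.801 ± 0.22 and -0.99 ± 0.22, Ppif (cyclophilin D) at -0.49 ± 0.20 and -0.51 ± 0.20, Mfn2 at 0.53 ± 0.21 with Thoc2 siRNA, and Dnm1l, the fission GTPase, at -0.66 ± 0.24 with Thoc5 siRNA. Between the siRNAs Vdac2 (-0.15 ± 0.15), Slc25a4 (0.13 ± 0.14) and Tspo (-0.19 ± 0.22) differed by about their errors.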

How the data were processed

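Per the file headers, the deposited scanner files hold a processed intensity per spot, already background-subtracted and detrended, beside mean and background intensity; they name Feature Extraction 9.5.3.1, and the submitters' processing notes version 11.0. A deposited series table of log2 values, quantile-alike across arrays (Spearman correlation 1 with the signal, median 5.82), served as an alternative; no header states how it was made, so its scaling is inferred. Control and outlier spots were left out, spots averaged, and a probe kept if at least 0.5 of its spots passed the scanner's above-background flag on both arrays of some group. A gene was its brightest kept probe. Names came from accessions and symbols in RefSeq (GRCm38.p6), coordinates from the files (mm7).

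Tests used R 4.3.3 and limma 3.58.1 (lmFit, eBayes), on all 6 arrays with 3 residual and 1.49 prior degrees of freedom, two-sided, adjusted by Benjamini-Hochberg over all genes or probes. An exact permutation test of 2 against 2 arrays cannot go below 0.333. Data for Thoc5 siRNA against NT were simulated over 19026 genes with normal noise, and changes were planted in few of them. There 0.2% of changes of 1 on the log2 scale and 18.7% of changes of 2 passed the adjusted threshold. The adjustment depends on how many genes change, and whether these shares carry over to the arrays was not tested. On the arrays, limma gave 19.4% of all genes an unadjusted p under 0.05 for Thoc5 siRNA against NT. The number of arrays limits the precision. The members and lists were chosen with earlier results of these data known. All 10 members are named, and of each further list the 3 genes with the smallest p per comparison, except 1 that is not reported here. NT replicate 1 and Thoc2 replicate 2 shared a slide, as did NT replicate 2 and Thoc5 replicate 2; the other arrays had a slide each.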

Additional observations from a re-analysis of the deposited data

How the results depend on the processing

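Of 89 differences of single members, member probes and named genes outside the family, 64 kept their sign in every setting and 25 changed it in at least 1, and the cause was not tested. The cell type markers are not among the 89. Between the siRNAs the members counted are Mcl1, Bax, Bid, Bbc3 and the Bcl2l11 junction probe only. The count of genes past the threshold was 0 in all 3 comparisons except 4 for Thoc2 siRNA with trend and robust variances (4 probes), and for Thoc5 siRNA 660 in that setting (887 probes) and 509 with the stricter filter (725 probes). With Thoc2 siRNA against NT the sign changed for Bad with quantile normalization (-0.14), median scaling (-0.18) and the deposited table (-0.15), for Bcl2l1 (-0.12), Bcl2l11 (-0.051) and Trp53 (-0.15) with median scaling, for Bak1 (0.47) with the mean of all kept probes, and for Bak1 (0.0397) and Bid (0.025) within the shared slide. It also changed for Bcl2l11 probe A_52_P348214 with quantile normalization (-0.16), and with normexp for Bcl2 probe A_52_P534870 (1.08), Daxx (-0.0061) and Trp53 (-0.11). With Thoc5 siRNA against NT it changed for Bbc3 with quantile normalization (0.0797), cyclic loess (0.051), median scaling (0.063), the deposited table (0.0815), the slide as a random block (8e-04) and within the slide (0.102). It changed there with normexp for Bid (-0.074), Pmaip1 (-0.11), Bcl2 probe A_52_P534870 (1.02) and Trp53 (-0.058), and with the mean of all kept probes for Bcl2 (-0.25), Bak1 (0.066) and Dnm1l (0.12). Between the siRNAs it changed for Bcl2l11 probe A_51_P484880 with normexp (-0.035), and for Parp1 (0.0795), Vdac2 (0.24) and Tspo (0.21) with median scaling. Leaving out 1 array at a time, where the lone array is assumed to vary like the others, gave for Thoc2 siRNA Bad -0.11 to 0.35, Bak1 -0.15 to 0.012, Bak1 probe A_52_P225207 -0.297 to 2.32, Bcl2l1 -0.11 to 0.48, Bcl2l11 -0.14 to 0.65 and Pmaip1 -0.39 to 0.17. For Thoc5 siRNA it gave Bak1 -0.22 to 0.038, Bak1 probe A_52_P225207 -1.09 to 1.53, Bbc3 -0.17 to 0.12, Bcl2 -0.51 to 0.73, Bcl2l11 -0.11 to 0.68 and Pmaip1 -0.063 to 0.51, and between the siRNAs Bcl2l11 probe A_51_P484880 -0.102 to 0.41. The sign changes given here for Bad belong to its minus-strand probe. The plus-strand probe, A_51_P419364, stayed above NT with both siRNAs in every setting tried for it. Median scaling moved the median of all genes by -0.30 for Thoc2 siRNA and 0.39 between the siRNAs, and normexp by 0.23 and 0.33 against NT. Of genes at an unadjusted p under 0.05, 1562 of 2814 were higher with Thoc2 siRNA, 1432 of 3765 with Thoc5 siRNA and 423 of 1776 between them; with median scaling 504 of 2439, 1107 of 2261 and 1244 of 1748 were. Deviations of replicate 1 from the group mean correlated at -0.20 (NT and Thoc2), 0.14 (NT and Thoc5) and 0.22 (Thoc2 and Thoc5). NT arrays shared slides with arrays of both other groups, so these values cannot tell whether replicate numbers pair the arrays. With the number as a replicate block in limma, 0 genes passed the adjusted threshold and 2788, 3279 and 1530 had an unadjusted p under 0.05. The settings of single probes without 1 array or with the block, those of named genes outside the family, and those of the upstream and downstream probes were chosen after seeing the data.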
